A study of Solanum phureja with 20 samples.

Results

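The second doubling of a potato genome was examined in root tips, where a tetraploid was set against the diploids it shares its genome with. The measurements came from 4 of the 20 arrays of the study, chosen by their labels as the root arrays that pair the tetraploid (4x) with a diploid line, 2 with 2xR3 and 2 with 2xR5. All lines belong to O37, a synthetic Solanum phureja autopolyploid series raised by doubling the chromosomes of a single monoploid with 12 chromosomes, so 4x, 2xR3 and 2xR5 carry copies of one genome and the results describe that genotype alone. Growing root tips of 4x, 2xR3 and 2xR5 were taken 7 days after planting, from a growth chamber with 15 h of light at 23.5 °C, 9 h of dark at 15.5 °C and 50% relative humidity. Their total RNA was amplified before labelling. Each diploid met 4x once in replicate 4 and once in replicate 5, with the dyes the other way round for 2xR3 and 2xR5, so a dye effect cancels in the mean over both diploids. The other 4 root arrays pair the diploids with the monoploid (1x) and were used for the spread between samples and for the values against 1x. They also entered the estimates of 4x over each diploid and of 2xR5 over 2xR3, but not that of 4x over the diploid mean.

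In an autopolyploid every chromosome set is a copy of the same set, so every gene gains copies in the same proportion. Doubled cells are usually larger, and their ratio of surface to volume is lower. The root tip holds the meristem and the cells leaving it to elongate. It is dense and fast-respiring tissue, and alcohol dehydrogenase is a classic enzyme of roots that run short of oxygen.

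Each value below is a log2 ratio of 4x over a diploid, so a negative value means a lower level in 4x. The labels do not say which channel is on top of the deposited ratio. Cy5 over Cy3 was taken as likely, and with the reverse every sign would turn. Ratios were centred on each array, so a value is relative to the other clones, and a change of all transcripts per cell would not show. A bulk ratio also cannot tell fewer cells of a type from less RNA per cell. Replicates are described as biological by the submitters, but no label ties them to plants, so the p-values rest on the spread between RNA samples that may share plants. A clone is a spotted cDNA, and its 2 spots were averaged.

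ADH1, an alcohol dehydrogenase of ethanol fermentation, had the lowest ratio of all clones measured. The 4x over 2xR3 log2 ratio of ADH1 was -2.01 in replicate 4 and -2.33 in replicate 5. The 4x over 2xR5 log2 ratio of ADH1 was -2.81 in replicate 4 and -2.57 in replicate 5. All 4 arrays put the tetraploid far below the diploid, and the values of the 2 loops lay close together, at -2.41 and -2.45 against the mean of the diploids. The estimate was -2.43 ± 0.23 (log2, SE, n = 2 loops), a 5.39-fold lower level in 4x, with a limma unadjusted p = 3.6e-05 and a Benjamini-Hochberg adjusted p = 0.113 over 8245 clones. ADH1 therefore did not pass the threshold of an adjusted p under 0.05 in the planned fit. Scaling the arrays to one spread enlarged the estimates of the named and list clones by a median of 1.53 times and put ADH1 at -3.71, a 13.1-fold lower level in 4x, with a limma adjusted p = 0.0245. ADH1 also passed at an adjusted p = 0.0277 without the replicate block, at 0.0256 with the first spot alone, at 0.00467 on the 4 arrays alone and at 1.02e-05 in one fit of both tissues over 5121 clones. It missed the threshold at 0.151 with robust variance estimates, at 0.146 when clones missing a value on some root arrays were let in, and at 0.195 with the second spot alone. The fit without the replicate block counts arrays that share an RNA sample as independent, so its p-value does not rest on the 2 loops alone. In the diploids over 1x, a comparison that shares the diploid samples and called 45.3% of clones, ADH1 stood at -2.27 (limma adjusted p = 0.0016). In 4x over 1x, which called 30.1% of clones, ADH1 stood at -4.70 (adjusted p = 6.02e-04). LDH-2, a lactate dehydrogenase and the other fermentation gene measured, stood at -0.04 and 0.03 over 2xR3 and -0.02 and -0.05 over 2xR5 in replicates 4 and 5, with an estimate of -0.02 ± 0.07 (SE, n = 2 loops).

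Over all 8245 clones with a value on every root array, 0 passed the threshold for 4x against the mean of the diploids (limma, 0% called). An unadjusted p under 0.05 was reached by 582 clones (7.06%). That number was 1262 with the arrays scaled. It was 1004 without the replicate block, where arrays sharing an RNA sample count as independent. Of the 582, 359 were lower in 4x (4.35%) and 223 higher (2.7%). The median size of the log2 difference was 0.058, against 0.209 for the diploids over 1x and 0.060 between the 2 diploid lines. The last compares line with line. For 4x over each diploid apart, the median size was 0.0695 with 2xR3 and 0.062 with 2xR5. Lower values reached further than higher ones: 10 clones were at least 2-fold lower in 4x and 0 at least 2-fold higher, and 45 were at least 1.5-fold lower against 9 higher. These are counts of clones and not of genes. The 10 include 3 clones of LOC102605260, at -1.56 to -1.20, and the 45 also include 2 clones of LOC102577712, at -0.93 and -0.91. Across clones, the values of the 2 loops correlated at r = 0.245, a description of arrays in which the 4x sample of a loop enters every ratio. In the plot of both loops ADH1 and LOC102605260 lie apart from the cloud of clones, and the named high genes lie within it.

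**Figure D1:**
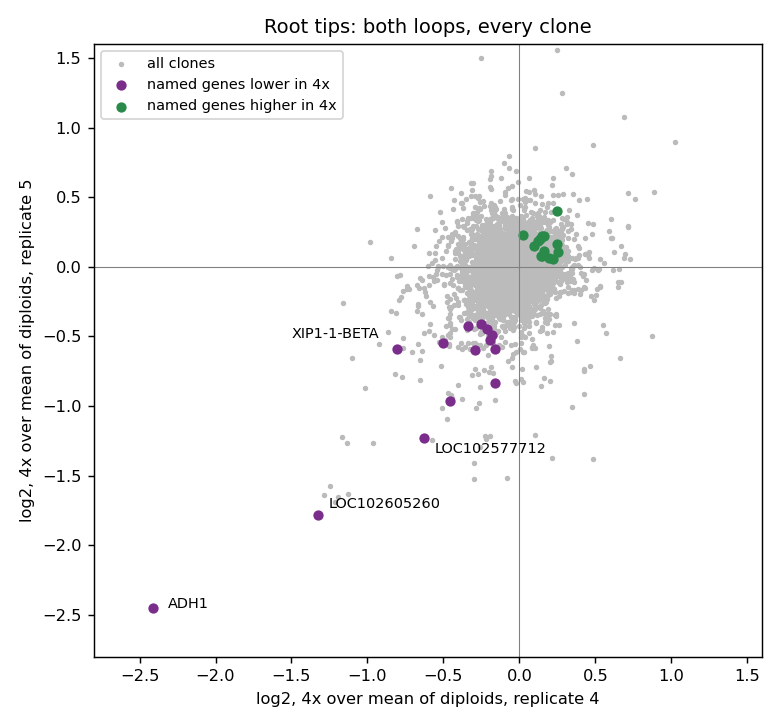
Log2 ratio of 4x over the mean of the diploids in replicate 5 (vertical axis) against replicate 4 (horizontal axis) for 8245 root clones in grey, with the 14 named genes lower in 4x in purple and the 14 higher in green. ADH1 lies alone at -2.41 and -2.45, LOC102605260 follows, and the green points stay within the cloud.

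The contrast was small on these arrays. The interquartile range of log2 ratios was 0.202 to 0.215 on the 4 arrays with 4x, against 0.427 to 0.496 on the root arrays with 1x. Duplicate spots correlated at 0.585 to 0.740 on the 4 arrays, against 0.916 to 0.952 on the arrays with 1x, and 17128 to 17573 spots had a value on each of the 4.

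Of the clones measured in root, 579 carried exactly 1 gene symbol, for 359 genes. Among them 93 clones were lower in 4x on all 4 arrays and 32 higher, where over all clones 10.8% were lower and 12.4% higher on all 4 (23.2% with one sign). The symbols come without a description, so those beginning with LOC are given by name alone. The 14 genes with the most negative and the 14 with the most positive estimate among clones of one sign on all 4 arrays are described next; choosing them by size and sign fixes their direction.

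LOC102605260 followed ADH1, and its 3 clones were low together. Its lowest clone had 4x over 2xR3 log2 ratios of -0.86 and -2.08 in replicates 4 and 5. The 4x over 2xR5 ratios of that clone were -1.79 and -1.49. The estimates of the 3 clones were -1.56 ± 0.38, -1.45 ± 0.40 and -1.20 ± 0.32 (SE, n = 2 loops), and limma adjusted p was 0.428 for the first. The array with 2xR3 in replicate 4 stood nearest 0, at -0.86 to -0.85 on each clone, while the other arrays gave -2.08 to -1.26.

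LOC102577712 was measured by 2 clones that matched closely. On the 4 arrays the first clone had ratios of -0.71 and -1.36 over 2xR3, and -0.54 and -1.11 over 2xR5, in replicates 4 and 5. The second clone gave -0.67 and -1.33, then -0.48 and -1.15. On both clones replicate 5 was lower than replicate 4 against either diploid, and against their mean the first clone stood at -0.63 in replicate 4 and -1.23 in replicate 5. Its estimate was -0.93 ± 0.14 (limma adjusted p = 0.349).

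LOC102587499 was covered by 10 clones whose estimates ran from -0.78 to -0.09. Of these, 5 were lower in 4x on all 4 arrays, with estimates of -0.71 to -0.36, and the most negative of the 5 had -0.37 and -1.02 over 2xR3 and -0.54 and -0.92 over 2xR5. The clones fell into sets by another comparison. Clones 1, 2, 3 and 8 stood at 1.41 to 1.65 in the diploids over 1x and had a 4x over 2xR3 ratio in replicate 4 of 0.07 to 0.22. Clones 4 to 7 and 9 stood at -0.29 to -0.10 in the diploids over 1x, with -0.38 to -0.25 on that array, and clone 10 at -0.53 and -0.25. Spotted cDNAs under one symbol thus gave different answers here, and whether they detect the same transcript was not tested.

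XIP1-1-BETA, an X intrinsic protein of the aquaporin superfamily of membrane channels, had 4x over 2xR3 ratios of -1.01 and -0.43 and 4x over 2xR5 ratios of -0.61 and -0.74 in replicates 4 and 5. Its estimate was -0.70 ± 0.21 (1.62-fold lower in 4x, limma adjusted p = 0.514). The same clone was 1.74 higher in the diploids than in 1x (adjusted p = 0.003) and 1.04 higher in 4x than in 1x (adjusted p = 0.026). XEGIP1, named after an inhibitor of fungal xyloglucan-cleaving endoglucanases known from tomato, had ratios of -0.15 and -0.61 over 2xR3 and of -0.18 and -1.06 over 2xR5. For XEGIP1 the low values were those of replicate 5, with -0.83 in that loop and -0.16 in the loop of replicate 4, and the estimate was -0.50 ± 0.17 (adjusted p = 0.603).

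The other 8 low genes had estimates of -0.52 to -0.33. LOC102604560 was the most even of them, at -0.62 and -0.66 over 2xR3 and -0.38 and -0.43 over 2xR5, with an estimate of -0.52 ± 0.08. LOC102596978 was low on all 3 of its clones, at -0.44, -0.43 and -0.34. LOC102586069 was low on all 4 of its clones, at -0.33 to -0.31. LOC102577514 stood at -0.38 on one clone and 0.03 on the other. LOC102605062 stood at -0.37 on one clone and at -0.08 and -0.04 on the others. LOC102597590, LOC102586657 and LOC102605073 had 1 clone each, at -0.36, -0.33 and -0.33, and LOC102586657 was 2.54 higher in the diploids than in 1x. Against the mean of the diploids, replicates 4 and 5 gave -0.19 and -0.52 for LOC102597590, -0.18 and -0.49 for LOC102586657, and -0.16 and -0.59 for the low clone of LOC102605062. With replicate 5 left out, the lone root loop gives no spread, so no p-value is given for these 3 genes. In 13 of the 14 low genes the value of replicate 5 was larger in size than that of replicate 4, XIP1-1-BETA being the exception. Among the 14 high genes described below the same held for 7, and the share over all clones was not computed. All 14 low genes had an unadjusted p under 0.05 and 0 an adjusted one, with limma adjusted p of 0.113 to 0.603. Choosing genes by size and sign favours a small unadjusted p. Over all clones, 4.35% were lower in 4x with an unadjusted p under 0.05.

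**Figure D2:**
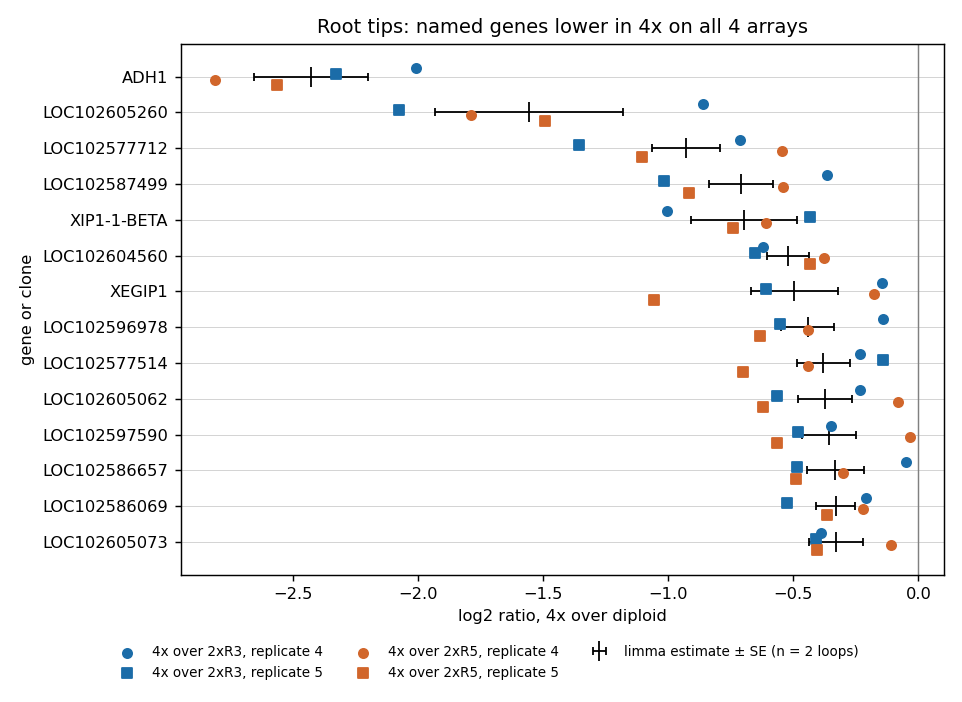
Log2 ratio of 4x over 2xR3 (blue) and 2xR5 (orange) in replicate 4 (circles) and replicate 5 (squares) for the 14 named genes lower in 4x, 1 clone each, offset vertically for legibility, with the limma estimate and its SE in black. Every point lies below 0; ADH1 lies at -2.01 to -2.81, and for most other genes the squares lie further from 0 than the circles.

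The named genes higher in 4x were small in comparison, with estimates of 0.11 to 0.32. LOC102583085 led, with 0.41 and 0.55 over 2xR3 and 0.08 and 0.25 over 2xR5 in replicates 4 and 5, and an estimate of 0.32 ± 0.06 (limma adjusted p = 0.349). Its ratios to 2xR3 were the larger ones in both replicates. DHAR2, a dehydroascorbate reductase that recycles ascorbate, had 0.39 and 0.15 over 2xR3 and 0.11 and 0.18 over 2xR5, with an estimate of 0.21 ± 0.06 (adjusted p = 0.466). Its other clone stood at 0.16 and was -0.05 on the array with 2xR3 in replicate 4.

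LOC102602150 and LOC102577503 had estimates of 0.19 each, and the other 3 clones of LOC102577503 stood at 0.04 to 0.08. LOC102596498 and LOC102577910 stood at 0.18 and 0.17. LOC102586427 stood at 0.15 on one clone and at -0.28 on the other, so its direction depends on the clone. LOC102577657, LOC102578876, LOC102577458, LOC102600252, LOC102578769, EI1 and LOC102595604 stood at 0.11 to 0.14 on the clone named. The other clone stood at -0.014 for LOC102578876 and at 0.006 for LOC102600252. The other 4 clones of LOC102595604 stood at 0.02 to 0.05. Of the 14 high genes, chosen in the same way, 4 had an unadjusted p under 0.05 and 0 an adjusted one. Over all clones, 2.7% were higher in 4x with an unadjusted p under 0.05.

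**Figure D3:**
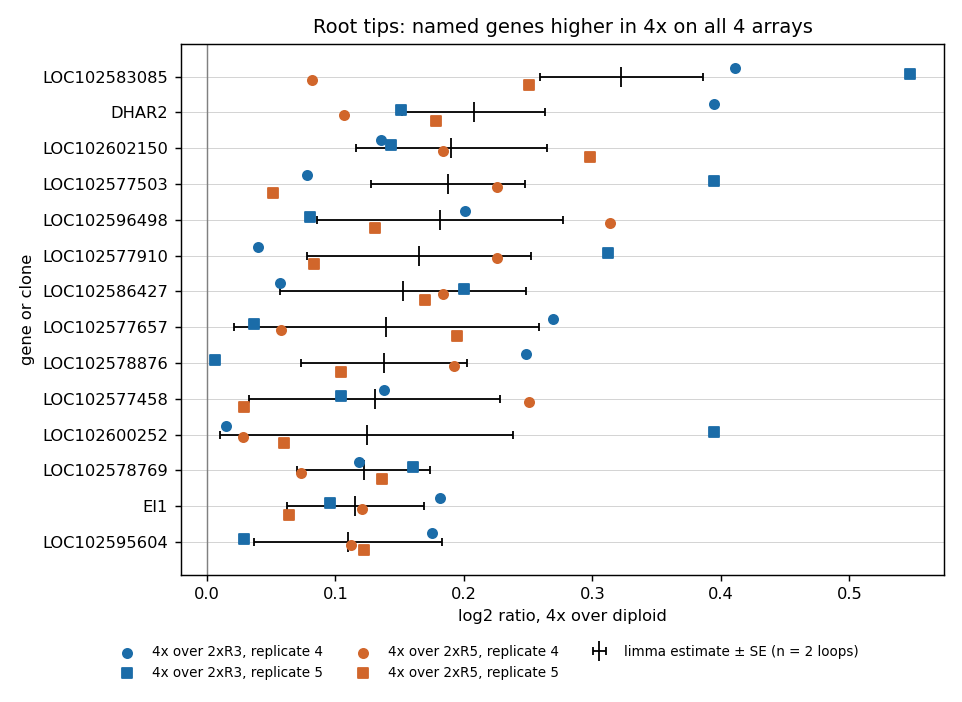
Log2 ratio of 4x over 2xR3 (blue) and 2xR5 (orange) in replicate 4 (circles) and replicate 5 (squares) for the 14 named genes higher in 4x, 1 clone each, offset vertically, with the limma estimate and its SE in black. All points lie between 0 and 0.55; the widest spread is that of LOC102583085, whose blue points lie right of its orange ones.

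Against each diploid apart, 0 of 8245 clones passed (limma, 0% called) for 4x over 2xR3 and for 4x over 2xR5. An unadjusted p under 0.05 was reached by 582 clones (7.06%) over 2xR3 and by 502 clones (6.09%) over 2xR5. Both comparisons use the same 4x samples. The diploids themselves were compared to ask whether lines of equal ploidy differed: 0 clones passed and 301 had an unadjusted p under 0.05 (3.65%). For 2xR5 over 2xR3, ADH1 stood at 0.87 (limma unadjusted p = 0.016, adjusted p = 0.998). On the arrays with 4x alone, ADH1 stood at 0.80 in replicate 4 and 0.24 in replicate 5. The list genes CAT1, METK1, CYCD3.3 and AMYA1 are described next because their ratios to 2xR3 and to 2xR5 stood apart. Their contrast was thus fixed by that choice.

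CAT1, a catalase that breaks down hydrogen peroxide, lay between the diploids on 2 of its 3 clones. On clone 2 the 4x over 2xR3 ratios were 0.66 and 0.64 in replicates 4 and 5. The 4x over 2xR5 ratios of clone 2 were -0.84 and -0.76. Clone 3 had 0.50 and 0.69 over 2xR3 and -0.63 and -0.51 over 2xR5. On both clones the tetraploid was above 2xR3 and below 2xR5 on every array, so the ratio to their mean was near 0, at -0.07 and 0.01. Clone 1 of CAT1 did not show this, at -0.03 and -0.16 over 2xR3 and -0.004 and -0.15 over 2xR5. For 2xR5 over 2xR3, clone 2 stood at 1.38 ± 0.51 (SE, n = 2 loops; limma unadjusted p = 0.035, adjusted p = 0.998) and clone 3 at 1.20 ± 0.50. On the 4 arrays alone, an alternative chosen after the data were seen, clone 2 stood at 1.45 ± 0.13 with an adjusted p = 1.

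METK1, an S-adenosylmethionine synthetase that makes the methyl donor of the cell, gave the opposite order on all 9 of its clones. Over 2xR3 its ratios were -0.26 to -0.14 in replicate 4 and -0.73 to -0.58 in replicate 5. Over 2xR5 they were 0.10 to 0.25 in replicate 4 and -0.14 to -0.01 in replicate 5. The tetraploid was thus below 2xR3 on both arrays of each clone and on either side of 2xR5. The estimates against the mean of the diploids were -0.22 to -0.16, and those of 2xR5 over 2xR3 were -0.51 to -0.44 (unadjusted p of 0.0035 to 0.0113, adjusted p = 0.998). The clones share a symbol and the same RNA samples, so they are not replicates of each other.

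CYCD3.3, a D-type cyclin that acts at entry into the cell cycle, had its low ratios against 2xR5. Its ratios were -0.01 and -0.07 over 2xR3 in replicates 4 and 5, and -0.64 and -0.38 over 2xR5. The estimate against the mean of the diploids was -0.27 ± 0.08 (limma adjusted p = 0.498), and 2xR5 over 2xR3 stood at 0.42 ± 0.09 (unadjusted p = 0.0039, adjusted p = 0.998). CYCD3.2, another D-type cyclin, had -0.06 and 0.06 over 2xR3 and -0.28 and 0.12 over 2xR5. AMYA1, an alpha-amylase of starch breakdown, had -0.47 and -0.36 over 2xR3 and 0.09 and -0.09 over 2xR5 on clone 1. On clone 2, AMYA1 had -0.11 and -0.36 over 2xR3 and 0.10 and 0.23 over 2xR5.

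**Figure D4:**
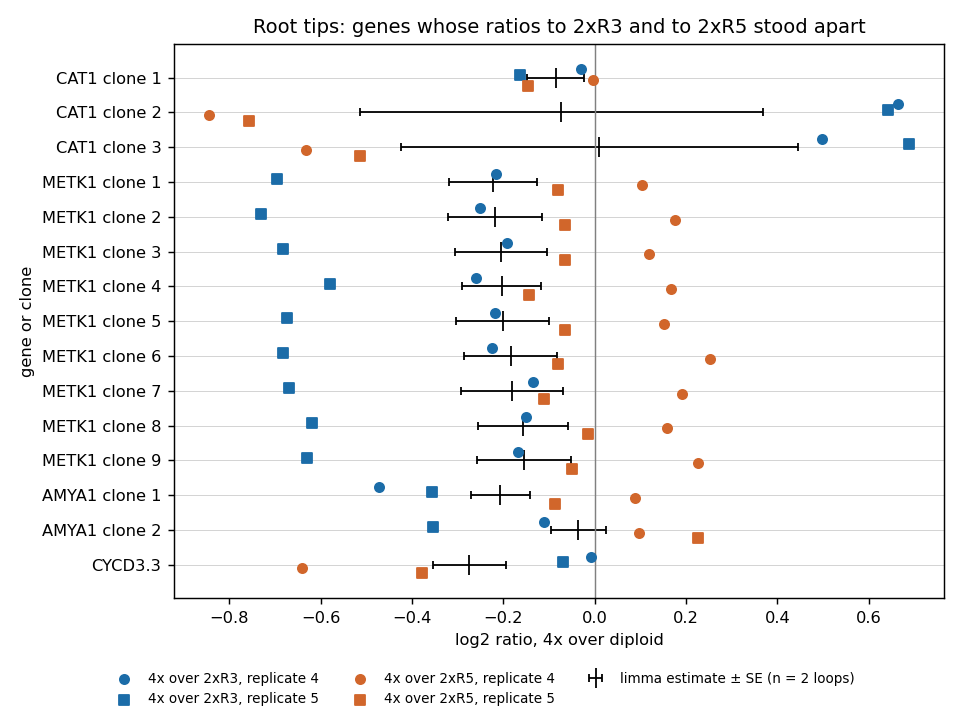
Log2 ratio of 4x over 2xR3 (blue) and 2xR5 (orange) in replicate 4 (circles) and replicate 5 (squares) for every clone of CAT1, METK1, AMYA1 and CYCD3.3, offset vertically, with the limma estimate of 4x over the mean of the diploids and its SE in black. CAT1 clones 2 and 3 have blue points above 0 and orange points below, whereas METK1 has blue points left of orange ones in both replicates.

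Lists of genes by role gave 0 clones past the threshold in any list, as over all clones (limma, 0% called). Their medians are set beside the median of all clones, which was 0.007. In the amino acid and methyl cycle list the median estimate of 14 clones was -0.18, and 9 of the 14 are METK1. ARD, an acireductone dioxygenase that salvages methionine, was lower in 4x on all 4 arrays, at -0.10 and -0.27 over 2xR3 and -0.20 and -0.17 over 2xR5, and was the list's only clone of one sign (0 with an unadjusted p under 0.05). SHMT, a serine hydroxymethyltransferase, stood at 0.03, SHKA, an enzyme that opens the shikimate pathway, at -0.12, and the branched-chain aminotransferases BCAT1 and BCAT2 at 0.02 and -0.04.

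In the glycolysis and respiration list, 0 of 5 clones of 2 genes had an unadjusted p under 0.05. The 4 clones of GAPDH, a glycolytic dehydrogenase, stood at -0.03 to 0.10, and PK, a pyruvate kinase, at -0.01. The median of these 5 clones was -0.02. In the starch list, GBSS, a granule-bound starch synthase, stood at 0.05 and 0.10 on its clones, and clone 1 of AMYA1 at -0.21 ± 0.06 (unadjusted p = 0.018, adjusted p = 0.528). The median of the 4 starch clones was 0.01.

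In the transport list, 6 clones had a median of -0.03, and XIP1-1-BETA and 1 clone of MIP2 were lower in 4x on all 4 arrays and 1 clone of KST1 was higher on all 4. That MIP2 clone had -0.28 and -0.21 over 2xR3 and -0.19 and -0.11 over 2xR5, with an estimate of -0.20 ± 0.05 (adjusted p = 0.472), and the clone stood at 0.94 in the diploids over 1x. Its other clone stood at -0.05. KST1, an inward potassium channel, stood at 0.02 on clone 1 and at 0.08 on clone 2, whose ratios were 0.12 and 0.10 over 2xR3 and 0.03 and 0.09 over 2xR5. PHA2, a plasma membrane proton pump, stood at -0.004.

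The redox list had 10 clones with a median of -0.08. DHAR, a second dehydroascorbate reductase, was at -0.04 and -0.44 over 2xR3 and -0.17 and -0.42 over 2xR5 on 1 of 3 clones, with an estimate of -0.27 ± 0.09 (adjusted p = 0.591), while DHAR2 stood above 0 on both of its clones. The other DHAR clones stood at -0.17 and -0.03. GRX2 was lower in 4x on all 4 arrays at -0.13, and NAD(P)H:QR stood at -0.09.

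The 7 clones of the hormone and development list had a median of -0.02. BEL5, a BEL1-like homeobox factor, was higher in 4x on all 4 arrays, at 0.27 and 0.05 over 2xR3 and 0.08 and 0.03 over 2xR5. ERS, an ethylene receptor, stood at -0.03, CDPK1, a calcium-dependent protein kinase, at -0.02, and the Aux/IAA genes IAA2 and IAA3 at 0.01 and 0.09. In the defence list, both clones of STWRKY8, a WRKY transcription factor, were lower in 4x on all 4 arrays, with estimates of -0.23 ± 0.09 and -0.22 ± 0.08 and adjusted p of 0.708 and 0.643. PPO, a polyphenol oxidase, stood at -0.13, POTLX-3, a lipoxygenase, at -0.03, and the 2 clones of R1 at -0.04 and 0.10.

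FLS, a flavonol synthase, had opposite signs in the loops on both clones. Its ratios over 2xR5 were -0.71 and 0.27 on clone 1 and -0.65 and 0.40 on clone 2 in replicates 4 and 5. VPE2, a vacuolar processing enzyme, also spread widely, at 0.32 and -0.34 over 2xR3 and -0.03 and -0.57 over 2xR5. PSBR, a photosystem II subunit and the only green tissue marker measured, stood at 0.04 and 0.12. The dividing cell markers measured were CYCD3.2 and CYCD3.3, given above. Ratios hold no levels, so marker levels could not be compared within a sample, and the part of cell composition in these results was not tested.

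The second doubling was then compared between tissues, to ask whether root tips and leaves gave different answers. Leaves were growing leaflets of the same lines at 20 days after planting, with 12 arrays, and 5121 clones had a value on every array of both tissues. In one limma fit, 74 clones (1.45%) differed between tissues in 4x over the diploids, 62 of them lower in root (1.21%) and 12 higher in root (0.234%). Of the 62, 61 were negative in root and positive in leaf, with medians of -0.28 in root and 0.54 in leaf, and 47 were larger in size in leaf. Of the 12, 8 were positive in root and negative in leaf, with medians of 0.07 in root and -0.70 in leaf. Choosing clones by a difference between tissues favours such opposite signs. Over all 5121 clones the median size was 0.054 in root and 0.099 in leaf, and the estimates correlated at r = 0.010 across clones.

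ADH1 differed most by p: -2.43 in root and 0.16 in leaf, a difference of -2.59 ± 0.25 (limma adjusted p = 2.57e-04). LOC102577712 differed on both clones, with -0.93 and -0.91 in root and 0.18 and 0.07 in leaf (adjusted p of 0.0038 and 0.0097). LOC102584296 stood at -0.33 in root and 0.58 in leaf (adjusted p = 0.010). LOC102596978 stood at -0.44 in root and 0.22 in leaf (adjusted p = 0.016). CYCD3.3 stood at -0.27 in root and 0.41 in leaf, a difference of -0.68 ± 0.13 (adjusted p = 0.016). For the leaf part of the same joint fit, LOC102584296 and CYCD3.3 passed the threshold (limma adjusted p of 0.0078 and 0.021). In leaf ADH1, LOC102577712 and LOC102596978 did not pass (0.130 to 0.739). For its root part, limma adjusted p was 1.02e-05 for ADH1 and 0.002 for LOC102577712 clone 1. It was 0.060 for LOC102596978 clone 1 and 0.416 for CYCD3.3. The planned fit of root alone, over 8245 clones, is a different test. In it none of these genes passed, with 0.424 for LOC102584296 and 0.498 for CYCD3.3.

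LOC102605260 differed on 2 of its clones, with -1.56 and -1.20 in root and 0.37 and 0.35 in leaf (adjusted p of 0.017 and 0.030). LOC102605062 stood at -0.37 in root and 0.28 in leaf on the clone that was low on all 4 root arrays (adjusted p = 0.025). Root and leaf samples differed in age, in amplification and in array set as well as in tissue, which cannot be told apart. Where a root replicate was left out, the lone root loop gave no spread, so those fits used the spread of leaf samples alone. Without leaf replicate 2 the count was 0 (limma, 550 with an unadjusted p under 0.05), where ADH1 had an adjusted p = 0.0761; it was 11 without root replicate 5, 43 without leaf replicate 1 and 115 without leaf replicate 3. Without root replicate 5, ADH1 and LOC102605260 were the named genes still past the threshold, and CYCD3.3 was also lost without root replicate 4.

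**Figure D5:**
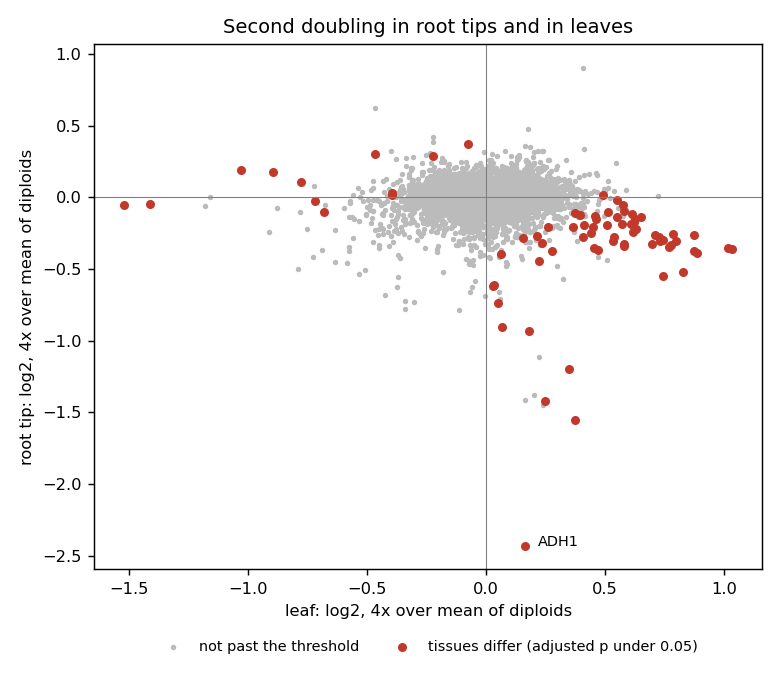
Log2 ratio of 4x over the mean of the diploids in root tips (vertical axis) against leaves (horizontal axis) for 5121 clones, with the 74 clones past the threshold for a difference between tissues in red. Most red points lie below 0 in root and above 0 in leaf; ADH1 lies at -2.43 in root and 0.16 in leaf.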

How the data were processed

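The authors deposited one log2 ratio per spot, and no spot intensities were used. The submitters' processing notes name limma; its version, background correction and normalization are not given in the sources used here. All values (100%, within 0.002) matched a ratio first rounded to 2 decimals and then logged. The layout gave 15360 pairs of spots (inferred; all 905 accessions with 2 spots fell on a pair), averaged per clone.

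Each ratio was turned to 4x over diploid. Lines were solved by least squares within each root loop and passed to lmFit and eBayes (limma 3.58.1, R 4.3.3) with line and a replicate block, and Benjamini-Hochberg adjustment over 8245 clones. A joint fit of both tissues used 5121. The loop design sets the block, as each replicate is a loop of its own; arrays correlated at 0.459 and 0.490 within a replicate and at 0.097 to 0.251 between replicates. The fit was run on simulated data only to check that mean estimates matched known differences and that a dye effect cancels. Its error rate and power are not reported here.

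Named genes are clones with exactly 1 symbol and 1 sign on all 4 arrays, the 14 lowest and the 14 highest; list genes; and the 5 genes with the smallest p past the threshold in a test. The platform annotation gave 1 symbol for 815 clones. Members and lists were chosen with earlier results of these data known. Alternatives were array scaling, robust variances, missing values, the block, joint tissues, single spots, the 4 arrays alone and leaving out each replicate. Precision is limited by the number of arrays, with a median SE of 0.070.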

Additional observations from a re-analysis of the deposited data

Results flagged for a closer look

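The difference between tissues in 4x over the mean of the diploids, root minus leaf, passed the threshold for 74 clones in a limma fit of both tissues. Among the genes named, ADH1 stood at -2.59 and CYCD3.3 at -0.68. LOC102577712 stood at -1.11 and -0.97 on its clones, LOC102584296 at -0.91, LOC102596978 at -0.67, and LOC102605062 at -0.65. LOC102605260 stood at -1.93 and -1.55 on the clones that passed. Each of these was lower in root than in leaf. LOC102602308, at -1.03, and 2 clones of SRE1A, at -0.62 and -0.59, also passed. LOC102577581 passed the other way, at 0.43 (limma adjusted p = 0.037). Leaving out 1 replicate lowered or raised the count of 74, to 0 without leaf replicate 2 and to 115 without leaf replicate 3.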

How the results depend on the processing

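For 4x over the mean of the diploids, 0 clones passed in the planned limma fit (582 with an unadjusted p under 0.05) and also with robust variances, with clones missing a value on some root arrays, and with the second spot alone. The count was 13 with the arrays scaled (3 higher, 10 lower), 17 in one fit of both tissues, 1 with the first spot and 1 on the 4 arrays alone. Without the replicate block it was 5, and leaving out 1 replicate gave 15 to 50, in fits that hold both tissues and take the lone loop to vary like the others. For 4x over 2xR3 the count of 0 became 7 in one fit of both tissues and 3 to 45 with 1 replicate left out. For 4x over 2xR5 it became 2 with scaling, 1 without the replicate block, 10 with both tissues, 1 with the first spot, and 15 to 34 with 1 replicate left out. For 2xR5 over 2xR3 it became 11 with both tissues and 1 to 2 with 1 replicate left out. The tissue difference of 74 became 189 with scaling, 133 without the replicate block and 0 to 115 with 1 replicate left out. The cause of these shifts was not tested. Fits without the replicate block count arrays that share an RNA sample as independent.

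Of the values of 4x over the mean of the diploids for single clones, 698 kept direction and side of the threshold, 18 passed it and 24 changed sign. With the first spot alone PK stood at 0.013, BCAT1 at -0.00325, CDPK1 at 0.016, R1 clone 1 at 0.017 and FLS clone 2 at 0.024. With the second spot alone LDH-2 stood at 0.00675, CAT1 clone 3 at -0.100 and ERS at 0.012. With 1 replicate left out the values ran, in log2, over -0.099 to 0.086 for PK, -0.0585 to 0.0225 for GAPDH clone 3, -0.0935 to 0.00375 for BCAT2, -0.122 to 0.214 and -0.0025 to 0.211 for GBSS clones 1 and 2, and -0.0675 to 0.059 for PHA2. For METK1 they ran over -0.382 to 0.0133 for clone 6, -0.390 to 0.0283 for clone 7, -0.317 to 0.004 for clone 8 and -0.341 to 0.0293 for clone 9. They ran over -0.0675 to 0.0875 for CAT1 clone 3, -0.105 to 0.120 for IAA2, -0.001 to 0.186 for IAA3, -0.125 to 0.0533 for R1 clone 1, -0.0333 to 0.228 for R1 clone 2 and -0.453 to 0.146 for VPE2.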

Other observations

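Some clones without a gene symbol lay far from 0, and on the high side further than the named genes higher in 4x, which reached 0.32. Clone 136791 had 4x over diploid log2 ratios of -1.25 and -1.80 over 2xR3 and -1.32 and -1.47 over 2xR5 in replicates 4 and 5, with an estimate of -1.46 ± 0.14 (limma adjusted p = 0.113). Clone 136795 stood at -1.42 ± 0.35. On the high side clone 139708 had 1.06 and 1.04 over 2xR3 and 0.99 and 0.75 over 2xR5, with an estimate of 0.96 ± 0.10 (adjusted p = 0.131), and it was 2.73 higher in the diploids than in 1x. Clone 153434 stood at 0.90 ± 0.36, with 0.45 and 0.05 in replicate 4 and 1.37 and 1.74 in replicate 5.

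Some symbols outside the naming rule were looked at after their values were seen. SS16 was lower in 4x on all 4 arrays on 2 of its 3 clones, at -0.30 and -0.28, and stood at 0.05 on the other. SRE1A was lower on all 4 arrays on each of its 3 clones, at -0.15, -0.13 and -0.11. On the first 2 of these clones the difference from leaf passed the threshold, with 0.46 in leaf on each (limma adjusted p of 0.016 and 0.028). GPI, a glucose-6-phosphate isomerase, stood at 0.01 and 0.02, and PDHE1-A, a subunit of pyruvate dehydrogenase, at 0.00 and 0.01.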
